A study of Homo sapiens with 2 samples.

Results

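The genes examined were 10 immediate early genes of human cells: the AP-1 genes FOS, FOSB, FOSL2, JUN, JUNB and JUND, the zinc finger genes EGR1 and EGR2, and IER2 and DUSP1. They were taken from the table by gene symbol, as a list put together with earlier results of these data known, and are 10 of the 46427 genes in the read count table. All 10 had at least 20 reads summed over the libraries and so were among the 13665 genes tested. RNA came from NK92, an established cell line of malignant human natural killer (NK) cells. The cells were grown for 18 h and then divided between 2 dishes with fresh medium. In 1 dish the cells received 10 µg/mL of PPMX-T003, an antibody against the transferrin receptor TfR1, for 6 h, and in the other they received none, with 1 library from each. The libraries held 46766416 counts without and 43178462 counts with the antibody. In the deposited table the columns are called 0 h and 6 h, although the methods describe the additional 6 h of culture for both dishes. The 0 h column was taken as the unexposed library. A difference in harvest time, and so in time since the change to fresh medium, cannot be told apart from the exposure.

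Immediate early genes are transcribed within minutes of a signal, without new protein synthesis, and their mRNAs are short-lived. FOS and JUN proteins carry a basic leucine zipper and pair into the transcription factor AP-1, in which a FOS protein needs a JUN partner. EGR proteins bind GC-rich DNA through zinc fingers, and in NK and T cells both families are induced by activating receptors through MAP kinase and calcium signals.

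NK cell markers were checked first. All 10 genes of the NK cell list were expressed, with a summed level of 4319 CPM (read counts scaled to the depth of the library) in the unexposed and 4808 CPM in the exposed library, and IL2RB, a subunit of the IL-2 receptor, had the most counts. By the counting intervals described below, 7 of these 10 genes were higher and 1 lower, beside 21.8% and 23.9% of all tested genes. With a trend on transcript GC content and length removed, 5 were higher and 2 lower, beside 18.9% and 21.2%. Of the T cell markers, CD3D, CD3G, CD5, CD8A and CD8B had 0 counts in both libraries and CD4 had 4 and 0. CD3E, which NK cells also transcribe, was at 673 TPM (scaled for transcript length as well) without and 698 TPM with PPMX-T003, and TRAC at 75 and 69 TPM. The B cell gene MS4A1 had 0 counts, while PAX5 had 169 and 78 and CD79A 14 and 12. Among monocyte genes, CD14 had 0 and 7 counts, LYZ 2 and 0, CSF1R 22 and 9, and ITGAM, an integrin gene of NK and myeloid cells, 213 and 180. The erythroid genes HBB and HBA1 and the fibroblast genes COL1A1 and COL1A2 had 0 counts, and the fibroblast gene DCN had 13 and 7. RNA was extracted in bulk, so fewer cells with a transcript and less of it per cell cannot be told apart.

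The 10 genes were compared between the libraries to see whether immediate early transcripts differed after 6 h of exposure to the antibody. With this single exposure time, a change that came and went before 6 h would not be seen. Differences are log2 fold changes of CPM, exposed against unexposed, on libraries scaled by TMM, a trimmed mean of log ratios, with 2 counts added as a prior. Each is followed by a 95% interval, computed by the Clopper-Pearson method from how a gene's reads divide between the libraries and put on the log2 scale. This interval covers counting error only and compares the libraries, not the conditions, because 1 library per condition gives no spread between replicates. A gene is called higher or lower here when its interval lies off 0.

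No gene of the 10 was at least 1.5-fold higher, against 3.94% of all tested genes, and none was at least 1.5-fold lower, against 3.84%. With a smaller threshold of 0.32 on the log2 scale, 0 of the 10 genes were higher (9.37% of tested genes) and 1, EGR2, was lower (9.48%). By their intervals, JUN, JUNB, JUND and IER2 were higher, 4 of 10, where 21.8% of tested genes were higher. JUND and IER2 did not keep this call once a trend on transcript GC content and length was removed. FOSL2 and EGR2 were lower, 2 of 10, where 23.9% of tested genes were lower. The intervals of FOS, FOSB, EGR1 and DUSP1 held 0. The median log2 fold change of the 10 genes was 0.04, with 5 above and 5 below 0, beside -0.002 for all tested genes. This median was 0 with TPM and -0.013 without FOSB, which has fewer than 200 reads, so no direction is read from it. The calls also followed depth, since 45.7% of all tested genes had an interval off 0 and the 4 genes without a call were among the 5 with fewer than 500 reads.

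**Figure D1:**
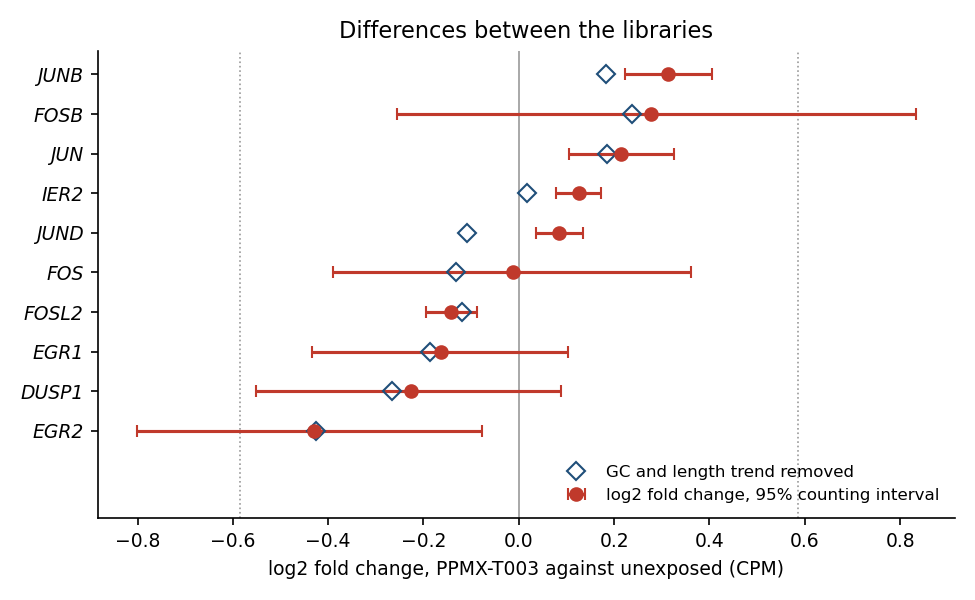
Log2 fold change of CPM between the exposed and the unexposed library for the 10 genes (filled circles, 1 library per condition), with bars for the 95% counting interval. Open diamonds give the value after a trend on transcript GC content and length was removed, and dotted lines mark 1.5-fold. Every filled circle lies between the dotted lines, and the diamond of JUND lies on the other side of 0 from its circle.

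In level, the genes fell into an abundant and a scarce group. Deposited TPM, which are scaled for transcript length and rounded to whole numbers, served to compare genes with each other. Without the antibody the order was JUND (167 TPM), IER2 (163), JUNB (48), FOSL2 (45) and JUN (19), followed by EGR1 and DUSP1 (4 each), FOS and EGR2 (3 each) and FOSB (1). With the antibody IER2 (172 TPM) stood above JUND (170), and the order below them was JUNB (58), FOSL2 (39), JUN (21), DUSP1 (4), FOS and EGR1 (3 each), EGR2 (2) and FOSB (1). The change of place between JUND and IER2, and the order of the 5 scarce genes, rest on differences of a few TPM with no replicate to judge them by. In both libraries each of the 5 abundant genes lay above each of the 5 scarce ones. The 5 abundant genes had a median log2 fold change of 0.13 and the 5 scarce ones, with wide intervals, a median of -0.16. With the trend on GC content and length removed, these medians were 0.02 (IER2) and -0.19 (EGR1). With TPM and a pseudocount of 1 they were 0.08 (IER2) and 0 (FOS, FOSB and DUSP1). No contrast between the groups is therefore read from them.

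**Figure D2:**
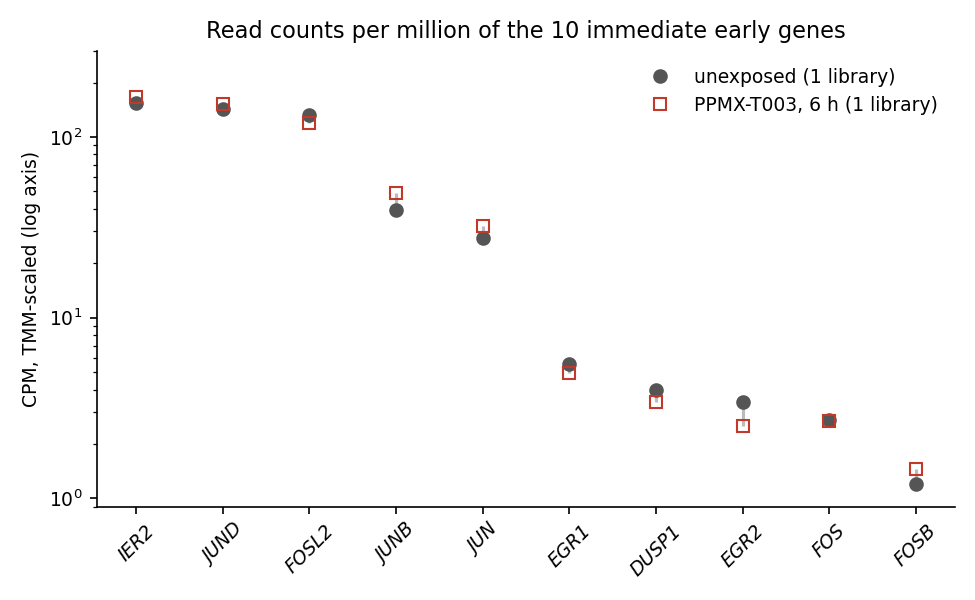
TMM-scaled CPM (log axis) of each gene in the unexposed (filled circles) and the PPMX-T003 library (open squares), 1 library each. CPM are not scaled for transcript length, so the plot compares libraries within a gene. The paired symbols lie close together for all 10 genes, from FOSB (1.20 and 1.46 CPM) to IER2 (153 and 167 CPM).

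In the JUN family, whose proteins pair with FOS proteins or with one another, JUN, JUNB and JUND were higher in the exposed library by their counting intervals, JUND only with the trend on transcript GC content and length left in. JUNB (NCBI Gene ID 3726, chr19:12791486-12793315, plus strand, GRCh38), whose protein activates fewer promoters than JUN and can restrain it, had 1845 reads without and 2115 reads with PPMX-T003. Its level was 39.4 CPM in the unexposed and 49.0 CPM in the exposed library, a log2 fold change of 0.31 (interval 0.22 to 0.41). Of the 10 genes, JUNB alone lay outside the middle 95% of genes with like counts, which ran from -0.32 to 0.27 over 4108 genes. It did so only with the trend left in, since after its removal JUNB was at 0.18, inside the range of -0.28 to 0.22 of such genes. JUN (3725, chr1:58780791-58784047, minus strand), the partner that gives AP-1 its strongest activation, had 1296 and 1387 reads. That is 27.7 and 32.1 CPM and a log2 fold change of 0.21 (0.10 to 0.33), inside the range of -0.34 to 0.30 of genes with like counts. JUND (3727, chr19:18279694-18281622, minus strand), which many resting cells transcribe steadily, had 6703 and 6554 reads. Scaled to depth, JUND was at 143 and 152 CPM, with a log2 fold change of 0.08 (0.04 to 0.13). Over the family, summed TPM was 234 without and 249 with the antibody. JUND made up 71.4% and 68.3% of it, JUNB 20.5% and 23.3%, and JUN 8.12% and 8.43%.

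The GC content of the transcripts moved with these values. Over 10 bins of genes by transcript GC content, the median log2 fold change was -0.13 in the lowest bin and 0.12 in the highest (61.4% to 74.1% GC, 993 genes). The highest bin holds JUNB, JUND and IER2, and the GC content of all 10 genes, 51.8% to 69.7%, lay above the median of 49.4% over tested genes. With a trend on GC content and transcript length removed, JUNB was at 0.18 (0.09 to 0.27) and JUN at 0.19 (0.08 to 0.30). JUND then changed sign, to -0.11 (-0.16 to -0.06), and IER2 was at 0.02 (-0.03 to 0.06). In that setting 2 of the 10 genes, JUN and JUNB, were higher and 3, FOSL2, JUND and EGR2, lower, beside 18.9% and 21.2% of the 12092 tested genes with known GC content and length. The median of the 10 genes was then -0.11. No direction is therefore given for JUND apart from that trend. JUN and JUNB consist of 1 exon, and the 116 genes of that build had a median log2 fold change of 0.07, against -0.009 in 9263 other coding genes. After the trend was removed these medians were 0.07 and -0.004, and the part of either feature in the values of JUN and JUNB was not tested. HOOK2 on the opposite strand shares an exon with JUNB and had 99 counts in each library. The kit was stranded, but whether the counting used the strand is not given in the sources used here, so reads of such a pair cannot be told apart.

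**Figure D3:**
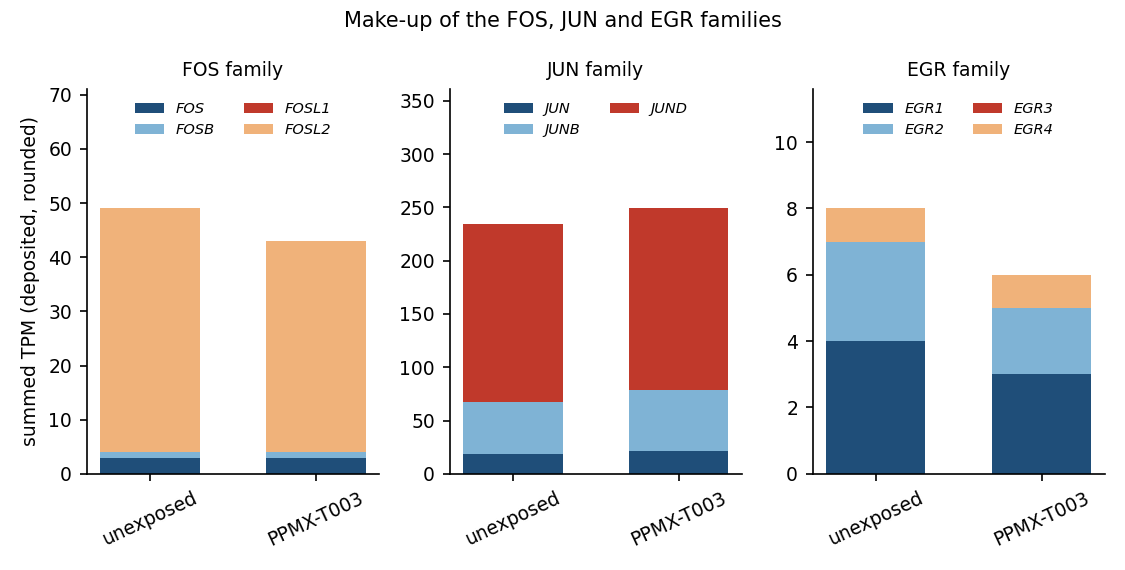
Summed TPM as deposited (rounded to whole numbers) of the FOS, JUN and EGR families in the unexposed and the PPMX-T003 library, 1 library each, with each gene as a coloured part of the bar. The 3 axes differ in scale and each starts at 0. FOSL2 and JUND make up most of their families in both libraries.

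In the FOS family, proteins do not pair with themselves, and FOSL2, unlike FOS and FOSB, lacks a strong activation domain. FOSL2 (2355, chr2:28392858-28417317, plus strand) had 6188 reads without and 5172 reads with PPMX-T003. At 132 and 120 CPM, its log2 fold change was -0.14 (-0.20 to -0.09), and -0.12 with the trend removed. The range of 3137 genes with like counts, -0.30 to 0.22, held this value. FOS (2353, chr14:75278828-75282230, plus strand), the best known of the rapidly induced genes, had 127 and 116 reads. Its levels of 2.71 and 2.69 CPM gave a log2 fold change of -0.013 (-0.39 to 0.36), so no difference was detectable at this depth. FOSB (2354, chr19:45467996-45475179, plus strand), whose short splice form lacks part of the activation domain, had 56 and 63 reads, the fewest of the 10 genes. With 1.20 and 1.46 CPM its log2 fold change was 0.28 (-0.26 to 0.83), also not detectable as a difference. FOSL1, the remaining gene of the family, had 0 counts in both libraries. FOSL2 thus made up 91.8% of the 49 TPM of the family without and 90.7% of the 43 TPM with the antibody, and FOS 6.12% and 6.98%.

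In the EGR family, EGR1 and EGR2 are transcription factors induced by antigen and cytokine receptors, and EGR2 also restrains activation in T cells. EGR2 (1959, chr10:62811996-62819167, minus strand) had 160 reads without and 109 reads with PPMX-T003, or 3.42 and 2.53 CPM. Its log2 fold change of -0.43 (-0.80 to -0.08) was the lowest of the 10 genes and was -0.43 with the trend removed. Depth limits this value, since the middle 95% of the 1679 genes with like counts ran from -0.69 to 0.70 and held it. EGR1 (1958, chr5:138465479-138469303, plus strand) had 259 and 213 reads, or 5.53 and 4.94 CPM. The log2 fold change of EGR1 was -0.16 (-0.43 to 0.10), a difference not detectable at this depth. EGR3 had 0 counts in both libraries and EGR4 had 25 and 39. The family summed to 8 TPM in the unexposed and 6 TPM in the exposed library, where rounding to whole numbers weighs on each part.

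The remaining genes, IER2 and DUSP1, belong to other families. IER2 (9592, chr19:13150411-13154911, plus strand) encodes a small nuclear protein induced by growth factors, and had 7183 reads without and 7226 reads with PPMX-T003, the most of the 10 genes. At 153 and 167 CPM its log2 fold change was 0.13 (0.08 to 0.17), which the removal of the GC and length trend brought to 0.02. A transcript listed under a clone name on the opposite strand shares an exon with it. DUSP1 (1843, chr5:172768096-172771195, minus strand) encodes a nuclear phosphatase that switches off p38, JNK and ERK, and so acts against the kinases that induce the other genes. DUSP1 had 187 and 147 reads, 4.0 and 3.4 CPM, and a log2 fold change of -0.23 (-0.55 to 0.09). A difference in DUSP1 was not detectable at this depth.

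**Figure D4:**
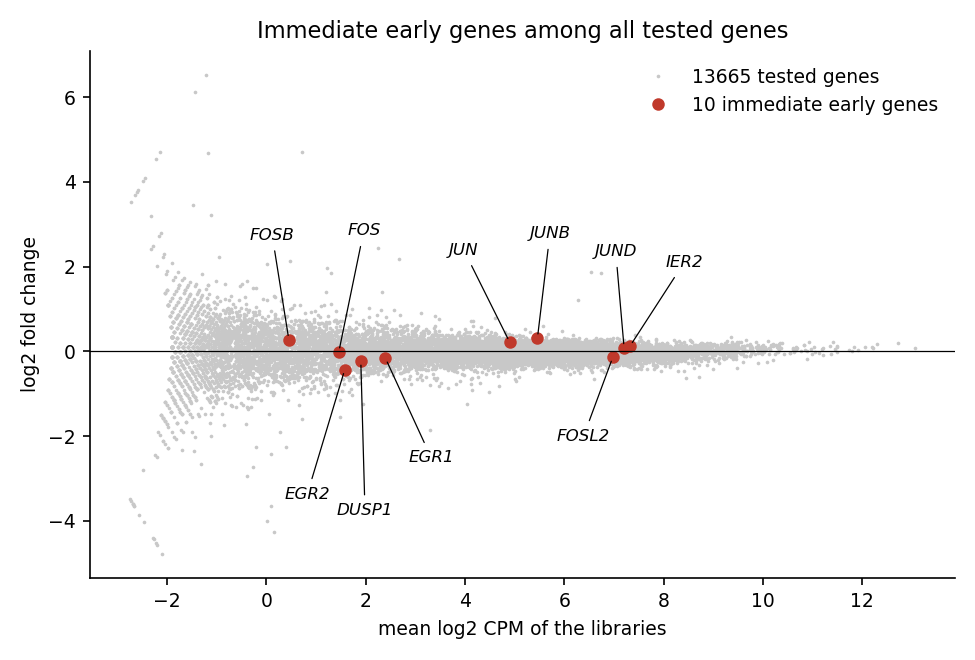
Log2 fold change against mean log2 CPM of both libraries for 13665 tested genes (grey) and the 10 immediate early genes (red), 1 library per condition. The grey cloud widens toward low CPM, and the red points lie within it, with JUNB near its upper edge.

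The promoters were read for features that the choice by symbol did not use. RefSeq gave 12 windows of 250 bases before a transcription start for the 10 genes, 1 for each gene and 3 for EGR2, in GRCh38.p14. Motifs were searched on both strands in these and in 35116 windows of that length over all genes. Bases outside the windows were not searched, so a gene without a match may hold the motif elsewhere. The CArG box, bound by serum response factor, was in 1.16% of all windows and, of the 10 genes, in EGR1 and EGR2. The cAMP response element TGACGTCA, bound by CREB and ATF proteins, was in 1.65% of all windows and in those of JUND and DUSP1. Its half-site TGACG, which the full element contains, was in 21.2% of all windows and in at least 1 window of each of the 10 genes. The AP-1 site TGACTCA or TGAGTCA was in 4.20% of all windows and in none of the 12. The EGR site GCGNGGGCG, in 8.41% of all windows, was in that of EGR1, and the TATA box TATAAA, in 10.7%, in those of FOS, FOSB, JUNB and DUSP1. A match describes these letters and not binding, and the genes that hold the CArG box or the full cAMP element had log2 fold changes from -0.43 (EGR2) to 0.08 (JUND).

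Of these windows, 5 are printed because they carry the CArG box or the full cAMP element or belong to the genes with the highest and the lowest log2 fold change, JUNB and EGR2. They are written 5′ to 3′ on the strand of the gene, with matches to the motifs in capitals. The EGR1 window is chr5:138465229-138465478 (plus strand), with CArG boxes 105 to 96 and 83 to 74 bases before the start and the EGR site 198 to 190 bases before it. The window of EGR2 is chr10:62816367-62816616 (minus strand), the third of its starts, with a CArG box 71 to 62 bases before the start. The JUNB window is chr19:12791236-12791485 (plus strand), with the half-site 137 to 133 and the TATA box 31 to 26 bases before the start. That of DUSP1 is chr5:172771196-172771445 (minus strand), with the full cAMP element 125 to 118 and the TATA box 30 to 25 bases before the start. The JUND window is chr19:18281623-18281872 (minus strand), with the full cAMP element 200 to 193 bases before the start.
EGR1: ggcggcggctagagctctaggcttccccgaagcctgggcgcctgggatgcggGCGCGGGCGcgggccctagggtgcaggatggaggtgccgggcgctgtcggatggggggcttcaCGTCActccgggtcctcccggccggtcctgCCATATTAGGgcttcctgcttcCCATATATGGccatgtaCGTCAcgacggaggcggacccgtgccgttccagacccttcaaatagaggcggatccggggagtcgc
EGR2: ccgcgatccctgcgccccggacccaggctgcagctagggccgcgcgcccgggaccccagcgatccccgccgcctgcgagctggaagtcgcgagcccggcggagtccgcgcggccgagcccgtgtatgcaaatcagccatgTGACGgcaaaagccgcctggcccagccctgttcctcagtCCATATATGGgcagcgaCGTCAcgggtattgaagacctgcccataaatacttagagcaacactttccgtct
JUNB: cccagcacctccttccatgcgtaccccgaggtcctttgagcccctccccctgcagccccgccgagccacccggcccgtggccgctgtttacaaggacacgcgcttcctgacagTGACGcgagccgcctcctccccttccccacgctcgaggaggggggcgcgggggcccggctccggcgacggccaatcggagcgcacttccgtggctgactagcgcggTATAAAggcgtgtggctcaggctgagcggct
DUSP1: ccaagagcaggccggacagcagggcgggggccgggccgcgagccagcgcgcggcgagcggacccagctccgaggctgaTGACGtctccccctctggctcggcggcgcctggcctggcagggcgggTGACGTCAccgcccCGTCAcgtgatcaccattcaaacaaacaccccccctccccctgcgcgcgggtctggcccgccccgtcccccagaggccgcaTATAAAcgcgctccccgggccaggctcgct
JUND: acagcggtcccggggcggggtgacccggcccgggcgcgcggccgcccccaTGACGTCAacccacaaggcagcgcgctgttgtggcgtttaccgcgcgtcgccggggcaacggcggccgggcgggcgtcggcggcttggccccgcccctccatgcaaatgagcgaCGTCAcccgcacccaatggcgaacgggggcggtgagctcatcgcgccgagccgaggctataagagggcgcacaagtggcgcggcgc

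Genes around the immediate early response were described by 8 lists, each by its calls and its median, which was -0.002 over all tested genes. Beside the 21.8% higher and 23.9% lower among all tested genes, 27.8% were higher and 32.1% lower among the 8359 with at least 1000 reads, since calls by the interval become more frequent with depth. Of the other AP-1 family genes, 10 of 13 were tested, with 1 higher, 2 lower and a median of -0.07, or 1 higher, 3 lower and -0.14 with the trend on GC content and length removed. BATF, which pairs with JUN proteins in lymphocytes, went from 38.5 to 47.1 CPM (0.29, 0.20 to 0.38), and was at 0.18 with the trend removed. ATF2, a stress-activated partner of JUN, went from 87.2 to 72.9 CPM (-0.26, -0.33 to -0.19), and the small MAF gene MAFG from 29.9 to 25.1 CPM (-0.25, -0.36 to -0.13). Among EGR3, EGR4 and the corepressors that bind EGR proteins, 3 of 4 genes were tested, with 1 higher, 1 lower and a median of 0.20. The corepressor NAB1 went from 47.1 to 39.7 CPM (-0.25, -0.34 to -0.16) and NAB2 from 8.65 to 9.97 CPM (0.20, 0.005 to 0.40). With the trend removed, NAB2, which is also the median of this list, was at 0.12 and no longer called higher, so that 0 genes were higher and 1 lower.

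Other immediate early genes were tested for 28 of 35, of which 7 were higher and 4 lower, with a median of -0.006. Among all tested genes 21.8% were higher and 23.9% lower. With the trend removed 6 were higher and 6 lower, with a median of 0.003. ZFP36, which speeds the decay of AU-rich mRNAs, went from 51.9 to 62.3 CPM (0.26, 0.18 to 0.34), and the stress gene GADD45B from 79.0 to 94.2 CPM (0.25, 0.19 to 0.32). Both transcripts exceed 61% GC, and with the trend removed they were at 0.13 and 0.11. TRIB1, a pseudokinase gene, went from 3.21 to 1.78 CPM (-0.83, -1.26 to -0.44) and the G protein regulator RGS1 from 6.41 to 4.33 CPM (-0.56, -0.84 to -0.30). BHLHE40, a repressor gene and the one with most counts, was at 253 and 252 CPM. NR4A1, a nuclear receptor gene named after its values were seen, had 33 reads without and 6 with PPMX-T003 (-2.03, -3.89 to -1.07).

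The genes that restrain MAP kinase signals had a median below 0. Besides DUSP1, 11 of 14 such genes were tested, with 1 higher, 5 lower and a median of -0.18, and -0.21 with the trend removed. Among all tested genes 21.8% were higher and 23.9% lower. The Ras pathway inhibitor SPRED1 went from 21.8 to 13.9 CPM (-0.65, -0.80 to -0.50), SPRED2 from 41.8 to 33.8 CPM (-0.30, -0.40 to -0.21), and the ERK phosphatase DUSP6 from 23.4 to 19.2 CPM (-0.29, -0.42 to -0.16). DUSP5, a nuclear ERK phosphatase with the most counts of this list, went from 325 to 348 CPM (0.10, 0.06 to 0.13), and was at 0.06 with the trend removed. All 29 genes of the MAP kinase cascade were tested, with 5 higher, 13 lower and a median of -0.05, but with the trend removed 6 were higher and 5 lower. Before that, the kinase genes BRAF (-0.23, -0.31 to -0.16) and RPS6KA5 (-0.20, -0.28 to -0.13) were lower, as was RPS6KA3 (-0.08, -0.11 to -0.04), while RPS6KA4, a nuclear kinase gene, was higher (0.21, 0.13 to 0.28). With the trend removed BRAF was at -0.15, RPS6KA5 at -0.11 and RPS6KA4 at 0.10, and RPS6KA3 changed sign, to 0.04.

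Factors on serum and cAMP response elements drive the promoters of FOS and EGR1. Beside 21.8% higher and 23.9% lower among all tested genes, 0 of 11 such genes were higher and 5 lower, with a median of -0.12. These were ELK4, a partner of serum response factor (109 to 84.6 CPM; -0.37, -0.43 to -0.30), CREB1 (-0.30, -0.37 to -0.23), ATF1 (-0.27, -0.38 to -0.16) and the coactivators EP300 (-0.23, -0.28 to -0.18) and CREBBP (-0.12, -0.17 to -0.08). With the trend removed the 5 values lay between -0.32 and -0.18. Another list held 12 genes for AU-rich element binding, deadenylation and, with DCP2 and XRN1, decapping and the decay that follows it. Such steps set the short life of FOS and JUN mRNAs. Of these 12 genes, 2 were higher and 7 lower, with a median of -0.10. Among tested genes with at least 1000 reads, as these have, 27.8% were higher and 32.1% lower. With the trend removed 2 were higher and 6 lower, with a median of -0.04, beside 18.9% and 21.2% of tested genes. XRN1 (-0.32), DCP2 (-0.20), CNOT1 (-0.14) and TIA1 (-0.15) were lower and KHSRP (0.06) was higher. Without the trend XRN1 was at -0.16, CNOT1 at -0.15, TIA1 at -0.065 and DCP2 at -0.025, where DCP2 was no longer called, and KHSRP changed sign, to -0.065. Of the AP-1 and EGR target genes of lymphocytes, 14 of 16 were tested, with 6 higher, 4 lower and a median of 0.03, or 5 higher, 5 lower and -0.006 with the trend removed. The chemokine genes XCL1 (25.8 to 32.3 CPM; 0.33, 0.21 to 0.44), XCL2 (0.26, 0.15 to 0.37) and CCL3 (0.14, 0.13 to 0.16) and the adhesion gene ICAM1 (0.15, 0.10 to 0.20) were higher, and CCL3 was at 0.09 and ICAM1 at 0.06 with the trend removed. The remaining calls are named after their values were seen. TNFRSF9, a costimulatory receptor gene, had 33 reads without and 49 with PPMX-T003 (0.65, 0.02 to 1.37), and the intermediate filament gene VIM was higher (0.10, 0.07 to 0.12) but at -0.02 with the trend removed. The 4 lower genes were the chemokine gene CCL4 (-0.05, -0.07 to -0.02), the IL-2 receptor gene IL2RA (-0.08, -0.15 to -0.008) and the death ligand genes FASLG (-0.09, -0.14 to -0.03) and TNFSF10 (-0.13, -0.24 to -0.02). With the trend removed TNFSF10 was at -0.04 and no longer called.

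**Figure D5:**
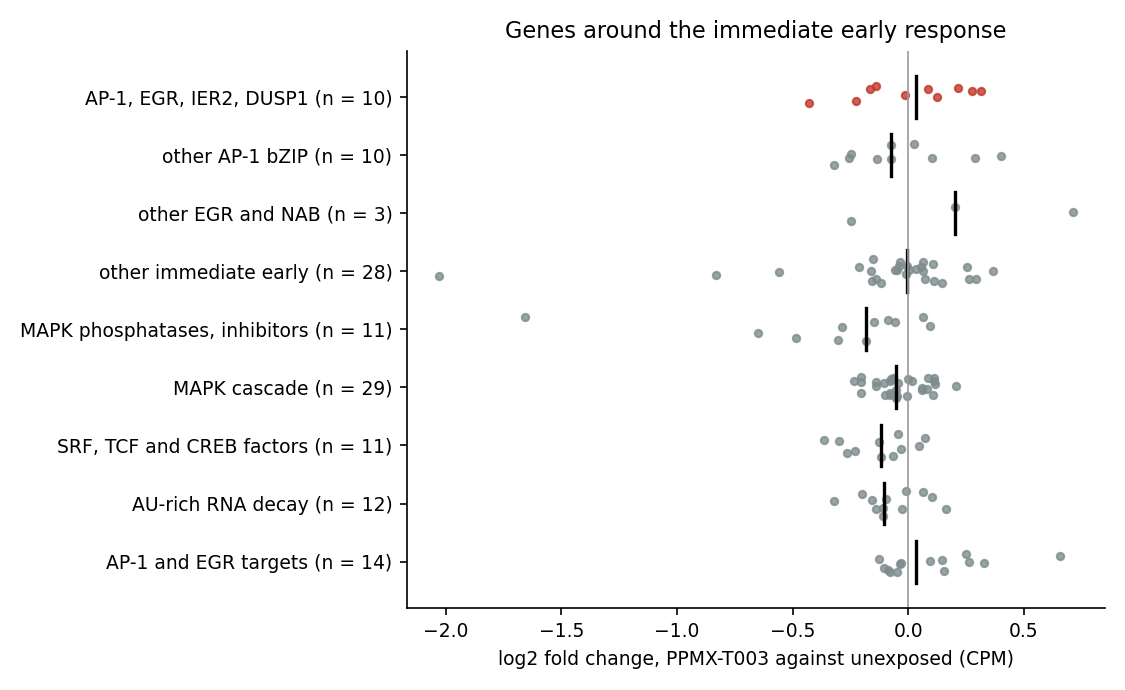
Log2 fold changes (CPM, exposed against unexposed, 1 library each) of the tested genes of 9 lists, 1 point per gene, with the median of each list as a black line. The 10 immediate early genes (red) lie between -0.43 and 0.31, and the points farthest below 0 are NR4A1 and DUSP4, named after their values were seen, with 33 and 25 reads in the unexposed library.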

How the data were processed

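Poly(A)-selected RNA of NK92 cells was sequenced, with 1 library per condition. The authors trimmed reads with Trimmomatic 0.38, mapped them with HISAT2 2.2.0 and counted them with StringTie 2.1.3b. The authors named edgeR 3.17 for the comparison, which was not run here. The deposited read counts are whole numbers per gene, estimated by StringTie where genes overlap. They carry commas between groups of digits, which were removed, and were for that reason recorded under a general unit and not as the counts that the planned design assumed. The deposited FPKM and TPM, rounded to whole numbers, were treated as a score.

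Scaling factors (TMM, trimming 30% of the log ratios and 5% of the mean levels) were 1.00 and 0.999. Scaling, log2 CPM (prior count 2) and counting intervals were computed in Python 3.11.15 using scipy 1.17.1, statsmodels 0.14.6, pandas 2.3.3 and numpy 2.4.6, and plotted with matplotlib 3.10.9. The steps were tested on simulated data. Reads were treated as independent, and neither the division of shared reads nor differences between dishes are in the intervals. Of 1 library, 3 counts equal 0.064 CPM (unexposed) or 0.069 CPM (exposed). Genes with at least 20 summed counts were tested, and genes with like counts are tested genes with 0.5 to 2 times the summed counts.

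GC content and length are medians over GENCODE 29 transcripts, an annotation other than that of the counts, known for 88.5% of tested genes and all 10 described. For FOS the median length is 834, because partial transcripts are listed. The trend is a robust regression of log2 fold changes on both features over the 9926 genes of 200 or more counts. Overlaps come from the same annotation, and gene positions and promoters from RefSeq.

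The 10 genes and the lists were chosen with earlier results of these data known. Named were the 10 genes and, of each list, the gene with most counts and up to 4 with at least 200 counts whose interval bound nearest to 0 was largest. NR4A1, DUSP4, TNFRSF9, VIM, the 4 lower target genes and genes listed at or near 0 were named outside this rule. The results of 3 genes of the lists are not reported here. Other scalings, prior counts, filters, thresholds, TPM and the trend were tried as alternatives.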

Additional observations from a re-analysis of the deposited data

How the results depend on the processing

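No paired analysis was possible because there was only 1 library for a condition, which also leaves no replicate to leave out. FOSL2, JUN, JUNB, EGR1, EGR2 and IER2 kept their sign in all 10 alternatives. Count filters leave the value of a kept gene as it is, and the scalings moved all genes by nearly the same small amount. Those settings therefore say little about how firm a sign is. With TPM and a pseudocount of 1, FOS, FOSB and DUSP1 were at 0, FOSL2 at -0.20, JUN at 0.14, EGR1 at -0.32, JUND at 0.026 and IER2 at 0.077. With the GC and length trend removed, JUNB was at 0.18, JUND at -0.11 and IER2 at 0.018, with 2 genes higher in place of 4. When the longest transcripts entered that fit, chosen after seeing the data, they were at 0.15, -0.12 and 0.020, again with 2 higher. The cause was not tested. At a threshold of 0.32 on the log2 scale, 1 of the 10 genes was lower in place of 0. Among all tested genes, 538 were at least 1.5-fold higher and 525 lower. These numbers were 2398 and 1980 with genes of at least 1 count and 66 and 69 with at least 200 counts. Over the 12092 genes with known GC content and length, they were 357 and 357 with the trend left in, 317 and 361 with it removed and 303 and 382 with the longest transcripts, so most of that drop came with the smaller set of genes. At 2-fold over all tested genes they were 173 and 188 and at 0.32 on the log2 scale 1280 and 1295. Calls by the interval numbered 4 higher and 2 lower of the 10 genes under every scaling and count filter run. A count filter cannot change the call of a gene it keeps, and FOSB drops out at 200 counts, which leaves 9 genes. The median, 0.04 for the 10 genes, was then -0.013. It was 0 with TPM, -0.11 with the trend removed and -0.09 with the longest transcripts. The depth of the 5 scarce genes limits what could be seen, since their intervals span from -0.80 to 0.83.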
